A study of Mus musculus with 10 samples.

Results

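Outside the best known noncoding transcripts, bone of 2-month-old and 22-month-old mice expressed many long noncoding RNAs (lncRNAs) at a substantial level, and 316 of them are described here. They were selected by level: the rows of the count table annotated as lncRNA whose mean over all 10 samples was at least 5 CPM (the usual depth-scaled unit of expression, a gene's count per 1000000 counts of its sample). Gm26917, Malat1, Neat1, Gas5, H19, Meg3, Gnasas1, Gm36827, Srrm4os and the genes named Snhg were left out by name. The table holds 38962 genes, of which 7346 are lncRNA rows, and 333 lncRNA rows reached the level before the 17 named exclusions. Because the level of all samples chose the members, their abundance is a description, whereas the difference between the ages did not enter the choice directly. Of the 316, 265 reached 5 CPM in the mean of both age groups, 39 in the mean of Young alone and 12 in the mean of Old alone. The members just above the limit were 2810405F17Rik, 4930481A15Rik and 4930426D05Rik at 5.04, 5.02 and 5.01 CPM, and the rows just below it were Gm45250, Gm31305 and Gm44752 at 4.998, 4.983 and 4.979 CPM.

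RNA was sequenced from the femurs of 5 Young and 5 Old male C57BL/6J mice, after the marrow had been flushed out and the bone pulverized. Young mice were 2 months old and came from the Jackson Laboratory. Old mice came from the colony of the National Institute of Aging and were kept to 22 months in house, so age and supplier cannot be told apart. Each library came from 1 mouse, was depleted of ribosomal RNA and then selected for polyadenylated RNA, so transcripts without a poly-A tail were measured only in part.

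A lncRNA is a long transcript that is not translated into a known protein. Some lncRNAs act in cis on the gene beside them, as imprinted lncRNAs do when they silence neighbours on the parental chromosome from which they are transcribed. Others act in trans by binding proteins or microRNAs, or serve as the primary transcript from which a microRNA or a small nucleolar RNA is cut. Many are transcribed from the opposite strand, an intron or the promoter of a coding gene, and their level then often follows that gene.

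Of the 316 lncRNAs, 19 contained at least 1 microRNA hairpin on their own strand, 37 hairpins in all, by the RefSeq positions on GRCm38.p6. The mature sequences of the hosts that the results turn on follow, written 5′ to 3′ with the seed (bases 2 to 8, which pair with target RNAs) in capitals. The miR-29 family is shown because its hairpins lie in or near lncRNAs that were higher in Old. miR-29b-3p and miR-29c-3p are encoded within A330023F24Rik on chromosome 1. miR-29a-3p and another copy of miR-29b lie 19818 and 19472 bases downstream of Lncpint on chromosome 6, on its strand but outside its annotated end. All share the seed AGCACCA.
miR-29a-3p: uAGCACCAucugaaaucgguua
miR-29b-3p: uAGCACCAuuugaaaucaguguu
miR-29c-3p: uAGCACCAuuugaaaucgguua

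Rian, the host with the largest fall in Old, contained miR-341, miR-1188 and miR-370 on chromosome 12. Their seeds differ from one another.
miR-341-3p: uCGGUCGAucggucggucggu
miR-1188-5p: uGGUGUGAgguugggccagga
miR-370-3p: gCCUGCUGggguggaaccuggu

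Per kilobase, the hosts with the highest level were Mir142hg, which contained miR-142, a microRNA of blood cells, and F630028O10Rik, which contained miR-223, a microRNA of myeloid cells. Dleu2, which contained miR-16, a brake on the cell cycle, is included because a called lncRNA lies inside it.
miR-142a-3p: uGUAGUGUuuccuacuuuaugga
miR-223-3p: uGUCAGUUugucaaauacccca
miR-16-5p: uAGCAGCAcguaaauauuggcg

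The lncRNA with the highest CPM, Oip5os1, is known as Cyrano and carries a nearly perfect site for miR-7, which leads to the decay of that microRNA. In the GENCODE vM21 transcript of Oip5os1 (8300 bases) the site for the seed lay at bases 2952 to 2958, and 22 of the 23 bases of miR-7a could be paired in the 26-base window around it. The site and the microRNA are given with the seed and its match in capitals.
Oip5os1 site: aacaacaaaatcaccaatGTCTTCCa
miR-7a-5p: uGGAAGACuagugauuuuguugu

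The total counts of the libraries ranged from 33447009 to 40395050 in Young and from 31788232 to 45075335 in Old. The 316 lncRNAs together took 0.378% to 0.591% of the counts of a Young library (median 0.502%) and 0.387% to 0.493% of those of an Old library (median 0.420%). Gm26917 alone took 14.5% to 24.02% in Young and 16.1% to 31.0% in Old, which lowers the CPM of all other genes in a sample, so the levels of single lncRNAs by sample and age group are given below as CPM scaled by trimmed mean of M values (TMM). Means over all 10 samples, which chose the members, and summed marker levels are CPM of total counts. Osteoblast, muscle and blood markers were all present. The summed level of 10 osteoblast markers was 49915 to 82967 CPM in Young and 15750 to 42082 in Old, with 6 markers lower. The summed level of 17 tested muscle markers was 26321 to 60853 in Young and 35864 to 84377 in Old, with 0 called. In bulk bone, fewer cells of a type and less RNA per cell cannot be told apart.

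Levels of the 316 lncRNAs were uneven. As means over all 10 samples in CPM of total counts, the median was 7.58 CPM, the quartiles were 6.16 and 11.9 CPM and the highest was 271 CPM, with 214 lncRNAs under 10 CPM and 12 at 50 CPM or more. Oip5os1 led in CPM, followed by Kcnq1ot1, F630028O10Rik, 2900097C17Rik, Gm42047, Dleu2, Tug1, Firre, Lncpint, 1810026B05Rik, AU020206 and Mirt1. Since long transcripts collect more reads, this is an order of reads, and levels of different genes were compared per kilobase of counted length. On that scale Bc1, a short RNA of 168 bases, stood first (95.2 CPM per kb in Young, 171 in Old). Mir142hg (72.6 and 56.1 CPM per kb), F630028O10Rik (56.9 and 43.8), 2900097C17Rik (31.2 and 37.1) and Oip5os1 (33.4 and 32.1) came next, while Kcnq1ot1, counted over 93092 bases, fell to rank 199. These levels chose the members and carry no test.

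**Figure D1:**
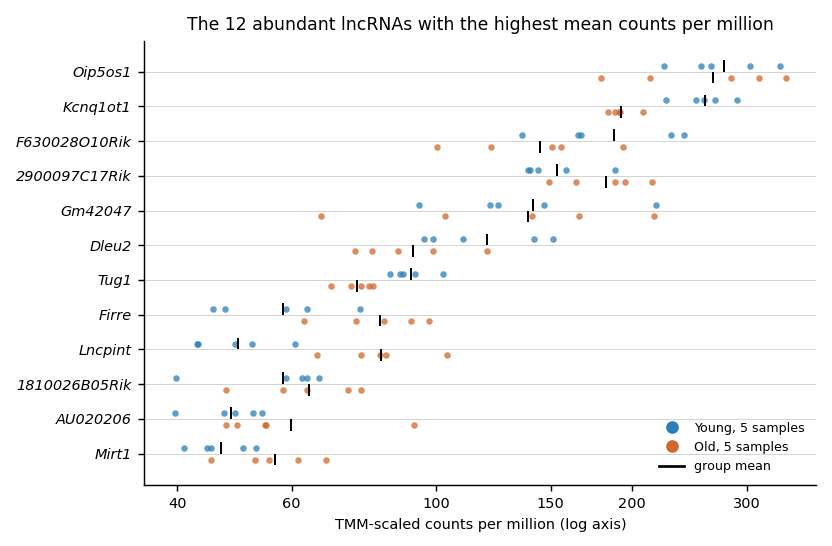
TMM-scaled CPM (log axis) of the 12 lncRNAs with the highest mean CPM, 1 row each, with 5 Young points, 5 Old points and a bar at each group mean. Old points of Kcnq1ot1 and Tug1 all sit below the Young points, and those of Lncpint all sit above them.

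For most of the abundant lncRNAs no difference between the ages passed the test, which would miss many small changes. With edgeR's quasi-likelihood test and Benjamini-Hochberg adjustment over all 22088 tested genes, all 316 passed the filter on low counts, 9 were higher in Old, 19 were lower and 288 were not called at an adjusted p of 0.05. The called share was 8.86%, beside 7.29% of all tested genes and 8.10% of all 12019 genes at the same level. The share called higher was 2.85%, beside 3.68% of all tested genes and 3.82% of those at the same level, and the share called lower was 6.01%, beside 3.61% of all tested genes and 4.28% of those at the same level. Before adjustment, edgeR's p was under 0.05 for 107 of the 316, for 5679 of all 22088 genes and for 3452 of the 12019. The median log2 fold change was -0.07 (quartiles -0.28 and 0.18), beside 0.01 over all genes and 0.02 over those at the same level. Of the 316, 57.0% were below 0, beside 49.1% of all tested genes and 46.5% of those at the same level. Young and Old values did not overlap in 24 of the 316 (7.59%), beside 7.80% of all tested genes. In total calls and in overlap the list as a whole therefore lay near the background. Among the 265 lncRNAs that reached 5 CPM in both group means, 5 were higher (1.89%) and 11 lower (4.15%). The age groups did not overlap in 13 of these 265 (4.91%). Of the 19 called lower, 8 became members through the Young mean alone (1700027J07Rik, Bach2it1, 2010007H06Rik, Gm16316, Redrum, 1810059H22Rik, Gm12158 and 4930426D05Rik), and of the 9 called higher, 4 through the Old mean alone (Gm1968, 4833418N02Rik, Gm10382 and Irx3os), so the choice by level favoured the direction of these 12. Scaled by total counts alone, which moved the median of all genes from 0.01 to -0.16, 3 of the 316 were higher and 19 lower. Over all genes, 1202 were then called, beside 1610 with TMM scaling.

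**Figure D2:**
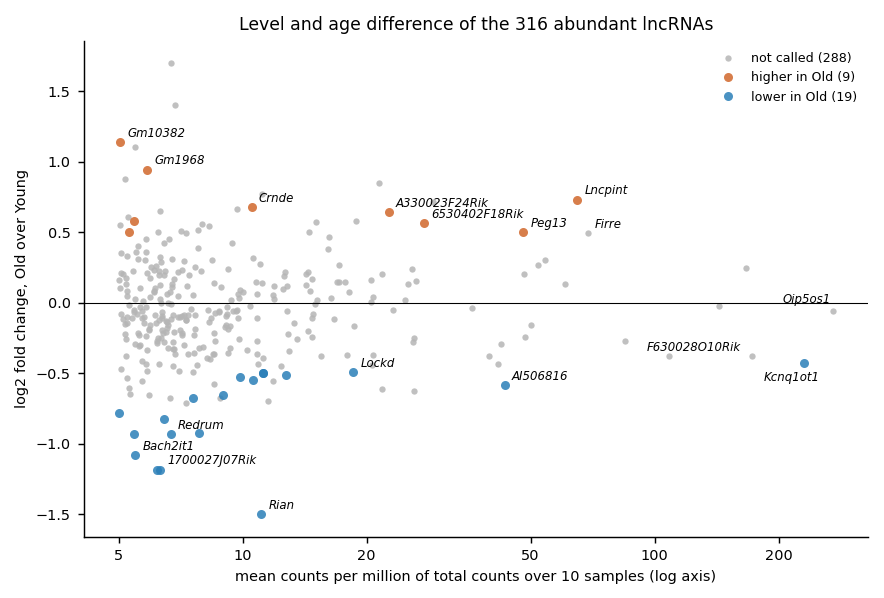
Log2 fold change of Old over Young against the mean CPM of total counts over all 10 samples (log axis, not TMM-scaled), 1 point per lncRNA. The 19 blue points were called lower, the 9 orange points were called higher, and most of both lie in the left part of the plot, with Kcnq1ot1 (230 CPM), Lncpint (64.9), Peg13 (48.0) and AI506816 (43.2) to the right.

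Imprinted lncRNAs moved in both directions. Of 5 abundant lncRNAs on the list of imprinted transcripts, Rian and Kcnq1ot1 were lower in Old, Peg13 was higher, and Airn and Nctc1 were not called. With the members of that list below 5 CPM or excluded by name, 4 of 10 tested were lower and 1 was higher, the other falls being those of Meg3 and Gnasas1. Of all tested genes, 3.61% were called lower and 3.68% higher. Rian (ENSMUSG00000097451.11, chr12:109603808-109661716, + strand) is transcribed from the maternal chromosome of the Dlk1-Dio3 domain and is the host of small nucleolar RNAs and microRNAs. Its level in Young was 15.8, 17.1, 16.1, 14.6 and 15.9 CPM. In Old it was 7.86, 3.80, 7.36, 2.51 and 6.81 CPM. Every Old mouse was therefore far below every Young mouse, and the 5 Young mice lay close together. The mean fell from 15.9 ± 0.886 to 5.67 ± 2.37 CPM (SD, n = 5), a log2 fold change (log2FC) of -1.50 (SE 0.26, edgeR adjusted p = 0.00573). Its neighbours on the same imprinted domain had the same sign: Rtl1, a retrotransposon-derived coding gene 3478 bases away, changed by -1.16 (edgeR adjusted p = 0.0407), Meg3 by -0.95 (0.012) and Mirg by -1.03 (0.0559). The call of Rian held under each of the 9 alternative analyses and without each sample in turn, with adjusted p of at most 0.0199.

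Kcnq1ot1 (ENSMUSG00000101609.2, chr7:143203458-143296549, - strand) starts in an intron of Kcnq1 and runs antisense to it, and the transcript of the paternal chromosome represses a group of surrounding genes that includes Cdkn1c. Young mice had 258, 268, 225, 290 and 251 CPM, and Old mice had 208, 189, 191, 191 and 184 CPM. The highest Old value was below the lowest Young value, and the Old mice differed little among themselves. The fall was moderate, from 259 ± 23.7 to 192 ± 8.999 CPM (SD, n = 5; log2FC of -0.43, SE 0.10, edgeR adjusted p = 0.0191). Kcnq1 (log2FC of -0.14, edgeR adjusted p = 0.743) and Cdkn1c (-0.26, 0.412) were not called. The call of Kcnq1ot1 ended without Young 2 (edgeR adjusted p = 0.0578), without Young 4 (0.0624) and with muscle marker level as a covariate (0.0556).

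The start of Kcnq1ot1 is shown because its promoter, part of an imprinting control region, is known for repeated CCAAT boxes. The 300 bases from RefSeq (GRCm38.p6, chr7:143296498-143296797, - strand, 250 before and 50 after the start) held 3 matches to CCAAT or its complement ATTGG, in capitals, whereas 3.56% of all 27025 promoters of this length held 3 or more. A RefSeq promoter was found for 166 of the 316 lncRNAs, and 37.95% of these held at least 1 match, beside 37.92% of all promoters. TATAAA or its complement stood in 12.05% of the lncRNA promoters and 14.2% of all, and the median number of CpG was 9.5 and 7.
Kcnq1ot1 promoter: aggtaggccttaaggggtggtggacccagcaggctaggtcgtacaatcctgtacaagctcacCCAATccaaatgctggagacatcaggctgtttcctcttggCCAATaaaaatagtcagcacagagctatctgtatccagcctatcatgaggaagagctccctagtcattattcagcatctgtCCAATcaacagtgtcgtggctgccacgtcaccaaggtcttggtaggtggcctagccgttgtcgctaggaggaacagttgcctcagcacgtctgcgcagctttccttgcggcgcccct

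Peg13 (ENSMUSG00000106847.1, chr15:72805600-72810324, - strand) is expressed from the paternal chromosome and lies within an intron of Trappc9, on its strand. It was at 41.1, 37.6, 38.8, 38.6 and 43.6 CPM in Young and at 52.5, 53.0, 63.2, 59.4 and 54.5 CPM in Old. All Old mice were above all Young mice. The mean rose from 39.9 ± 2.39 to 56.5 ± 4.65 CPM (SD, n = 5; log2FC of 0.50, SE 0.09, edgeR adjusted p = 0.00546). Trappc9 itself was at 59.1 and 70.3 CPM and was not called (log2FC of 0.25, edgeR adjusted p = 0.209). Scaled by total counts alone, Peg13 was no longer called (adjusted p = 0.172). Airn, the antisense transcript that silences Igf2r on the paternal chromosome, was at 20.5 ± 1.79 CPM in Young and 21.1 ± 3.54 in Old (SD, n = 5; log2FC of 0.04, SE 0.12, edgeR adjusted p = 0.86). Igf2r was at 123 and 122 CPM. Nctc1, a transcript 16933 bases from H19, varied more within the groups than between them, with 9.16 to 45.1 CPM in Young and 21.0 to 71.0 in Old (log2FC of 0.72, SE 0.41, edgeR adjusted p = 0.298).

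**Figure D3:**
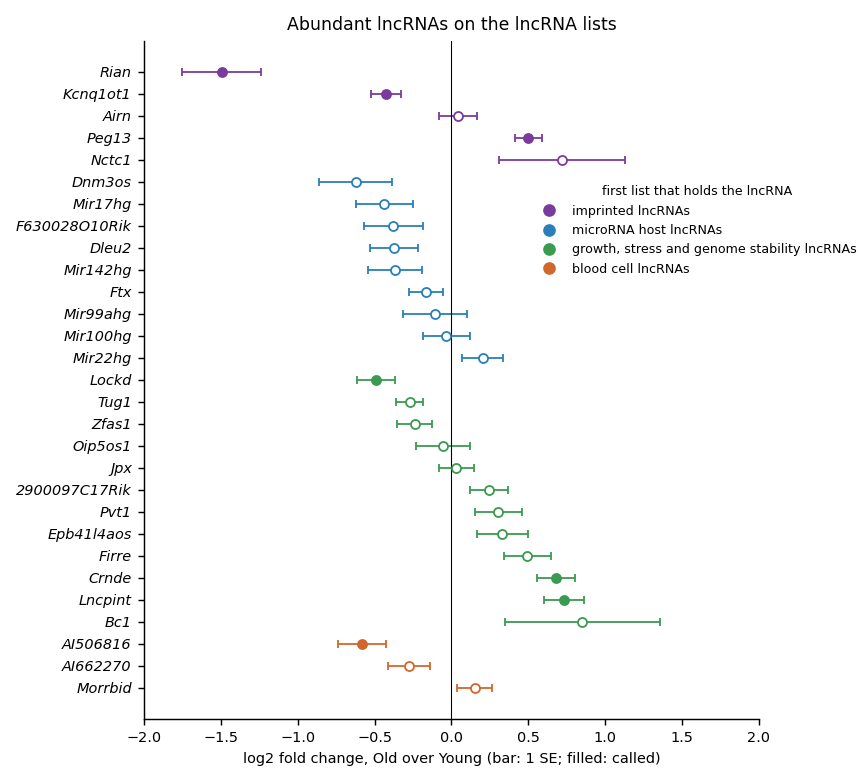
Log2 fold change of Old over Young with 1 standard error for the abundant lncRNAs on the lists of imprinted, microRNA host, growth and stress, and blood cell transcripts, coloured by the first list that holds each, and filled where called. Both imprinted falls (Rian, -1.50; Kcnq1ot1, -0.43) and the rise of Peg13 (0.50) stand clear of 0, and the microRNA hosts lie mostly left of 0 with open symbols.

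The abundant microRNA hosts on the list were mostly at or below their Young level, but 1 of the 10, Rian, passed the test. The other 9 were not called, and 9 of the 10 had a fold change below 0. Their median was -0.37 on the log2 scale, beside -0.07 over the 316 lncRNAs and 0.01 over all tested genes. Of all 19 lncRNAs with a hairpin on their strand, on the list or not, 1 was higher, 1 lower and 17 not called. Over all tested genes, 3.68% were called higher and 3.61% lower. F630028O10Rik, the host of miR-223, was at 167, 241, 136, 230 and 165 CPM in Young and at 155, 194, 100.2, 151 and 122 CPM in Old, so the groups overlapped (log2FC of -0.38, SE 0.19, edgeR adjusted p = 0.23). Dleu2, the host of miR-16, was at 120 ± 25.4 CPM in Young and 92.2 ± 17.9 in Old (SD, n = 5; edgeR adjusted p = 0.155). Gm27010, a short transcript inside Dleu2 on its strand, was called lower, but it was named after its values were seen. It went from 14.5 ± 2.71 to 10.2 ± 1.56 CPM (SD, n = 5; log2FC of -0.51, edgeR adjusted p = 0.0491). That call ended without 7 of the 10 samples, namely Young 1, 2 and 4 and Old 2 to 5, with adjusted p up to 0.133. It also ended with total-count scaling (0.0503), median-of-ratios scaling (0.0516), limma-voom (0.0554) and the muscle covariate (0.179).

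Dnm3os, whose microRNAs miR-199a and miR-214 are those of mesenchymal cells, was at 34.6, 35.3, 34.2, 31.5 and 20.5 CPM in Young and at 28.3, 16.95, 13.9, 13.5 and 28.6 CPM in Old. A single Young mouse lay within the Old range, and the difference did not pass (log2FC of -0.62, SE 0.24, edgeR adjusted p = 0.13). Mir17hg, host of the miR-17 cluster of proliferating cells, was at 8.70 ± 2.48 and 6.42 ± 0.855 CPM, and Mir142hg, host of the blood cell microRNA miR-142, at 19.5 ± 3.598 and 15.1 ± 3.93 CPM (SD, n = 5; edgeR adjusted p = 0.156 and 0.201). Mir100hg (36.1 and 35.2 CPM), Mir99ahg (15.4 and 14.3), Ftx (19.5 and 17.4) and Mir22hg (13.3 and 15.3) differed by less than their spread. The mature microRNAs themselves were not measured in these libraries.

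A330023F24Rik (ENSMUSG00000096929.7, chr1:194976375-195037904, + strand), the host of miR-29b and miR-29c, was the one host called higher, and it is not on the list of hosts. The miR-29 family is known to repress collagens and other matrix genes. Young mice had 16.3, 18.9, 14.3, 17.3 and 22.6 CPM, and Old mice had 25.9, 20.2, 40.7, 26.8 and 26.5 CPM. A single Old mouse, at 20.2 CPM, fell between the Young mice, and the highest value, that of Old 3, was well above the rest. The mean went from 17.9 ± 3.15 to 28.0 ± 7.57 CPM (SD, n = 5; log2FC of 0.64, SE 0.17, edgeR adjusted p = 0.0383). The host shares 1079 exonic bases with Cd46 on the other strand, which was not called (-0.11, edgeR adjusted p = 0.65). The call was near the threshold and ended without Young 1, 2, 3 or 4 or Old 3, 4 or 5 (adjusted p up to 0.0882). It also ended with total-count scaling (0.156), limma-voom (0.0501) and the muscle covariate (0.108).

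Among lncRNAs of growth control, stress and genome stability, Lncpint and Crnde were higher in Old and Lockd was lower, while the other 10 of 13 abundant members of that list were not called. With excluded and less abundant genes, 2 of 19 tested were higher and 2 lower, the other one being Meg3. The shares over all tested genes were 3.68% higher and 3.61% lower. Lncpint (ENSMUSG00000044471.12, chr6:31082565-31220488, - strand) is induced by p53 and restrains proliferation. It was at 42.9, 52.2, 49.1, 43.1 and 60.7 CPM in Young and at 83.8, 65.7, 104, 82.1 and 76.7 CPM in Old. The lowest Old mouse was above the highest Young mouse. The mean rose from 49.6 ± 7.37 to 82.4 ± 13.9 CPM (SD, n = 5), a 1.66-fold difference (log2FC of 0.73, SE 0.13, edgeR adjusted p = 0.00573). It was called under each of the 9 alternatives and without each sample in turn (adjusted p of at most 0.0386).

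Crnde (ENSMUSG00000031736.11, chr8:92326033-92356120, - strand), a transcript of growing and tumour cells, starts beside Irx5, a homeobox gene of limb and bone development. It was at 8.77, 8.01, 7.04, 7.10 and 9.72 CPM in Young and at 11.7, 13.5, 13.2, 11.7 and 15.03 CPM in Old, without overlap. It rose from 8.13 ± 1.14 to 13.0 ± 1.40 CPM (SD, n = 5; log2FC of 0.68, SE 0.12, edgeR adjusted p = 0.00629). Irx3os, antisense to Irx3 in the same gene cluster, was also higher, with 3.38 to 5.02 CPM in Young and 5.76 to 7.90 in Old (log2FC of 0.58, SE 0.15, edgeR adjusted p = 0.035). The coding genes Irx5 (0.32, edgeR adjusted p = 0.2) and Irx3 (0.31, 0.228) were not called. With total-count scaling, neither Crnde (0.0941) nor Irx3os (0.158) was called. Irx3os also lost its call without Young 1, 2 or 4 or Old 3 or 5 (adjusted p up to 0.0931) and with the muscle covariate (0.109). It became a member through the Old mean alone.

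Lockd (ENSMUSG00000098318.7, chr6:134929092-134956798, + strand) is transcribed downstream of Cdkn1b, a cell cycle inhibitor that a regulatory element at the Lockd start activates in red cell precursors. It was at 19.2, 21.9, 18.3, 27.3 and 19.1 CPM in Young and at 16.5, 16.2, 13.7, 13.3 and 15.4 CPM in Old. The groups did not overlap, although Young 4 was well above the other Young mice. The mean fell from 21.2 ± 3.71 to 15.03 ± 1.46 CPM (SD, n = 5; log2FC of -0.49, SE 0.13, edgeR adjusted p = 0.0307). Cdkn1b was at 81.4 and 75.6 CPM and was not called (-0.11, edgeR adjusted p = 0.541). The call of Lockd ended without Young 2 (0.0806), Young 4 (0.0783), Old 3 (0.0716), Old 4 (0.0541) or Old 5 (0.053) and with the muscle covariate (0.112).

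The remaining lncRNAs of this list include several with a high CPM. Firre, an X-linked transcript that organizes chromatin contacts, was at 58.3 ± 12.6 CPM in Young and 82.1 ± 13.7 in Old (SD, n = 5; log2FC of 0.49, SE 0.15), but the groups overlapped and the difference missed the threshold (edgeR adjusted p = 0.0655). Tug1 did not overlap, with 84.8 to 102 CPM in Young and 68.9 to 80.0 in Old, and also missed it (log2FC of -0.27, SE 0.09, edgeR adjusted p = 0.0748). Oip5os1 was at 277 ± 44.2 and 267 ± 68.9 CPM (SD, n = 5; log2FC of -0.06, SE 0.17). The lncRNA 2900097C17Rik is known as Norad, which binds Pumilio proteins and protects genome stability. Its GENCODE vM21 transcript of 4915 bases held 11 matches to TGTANATA, the Pumilio motif, on the transcribed strand, or 2.24 per kb, whereas 21.5% of the 316 lncRNA transcripts held any. It was at 154 ± 21.0 CPM in Young and 182 ± 25.8 in Old (SD, n = 5; log2FC of 0.25, SE 0.12, edgeR adjusted p = 0.23). Pvt1 (7.54 and 9.33 CPM), Jpx (9.61 and 9.85), Zfas1 (15.6 and 13.2) and Epb41l4aos (4.69 and 5.92) were not called. Bc1 ranged from 2.29 to 34.9 CPM among Young mice, so its difference (log2FC of 0.85) was smaller than 2 standard errors (SE 0.50).

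Of the lncRNAs called lower in Old, 5 lie within or beside genes of B lymphocytes. They were brought together after their values were seen, from no fixed list and with no test of the group. Bach2it1, 2010007H06Rik, Gm12158 and 4930426D05Rik became members through the Young mean alone, so the choice by level favoured their direction. Other abundant lncRNAs over genes of these cells, on the opposite strand, were not called, namely Gm12462 at Pax5 (log2FC of -0.48, edgeR adjusted p = 0.0905), Gm12000 at Ikzf1 (-0.18, 0.524) and Gm12064 at Bcl11a (-0.22, 0.429). Bach2it1 (ENSMUSG00000087049.1, chr4:32251761-32265835, + strand) lies in an intron of Bach2, a repressor that guides B and T cell fate, on its strand. Its level was 8.06, 8.64, 7.45, 7.33 and 4.98 CPM in Young and 4.36, 2.39, 3.95, 3.14 and 3.44 CPM in Old. Each Old mouse was below each Young mouse. It fell from 7.29 ± 1.40 to 3.46 ± 0.759 CPM (SD, n = 5; log2FC of -1.08, SE 0.19, edgeR adjusted p = 0.00442), and Bach2 changed by -0.95 (edgeR adjusted p = 0.000558). Reads of unspliced Bach2 RNA cannot be told apart from Bach2it1.

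2010007H06Rik (ENSMUSG00000044694.2, chr9:51278513-51284210, + strand), which lies 38433 bases from Pou2af1, a coactivator of immunoglobulin genes, was at 10.3, 13.1, 8.39, 10.3 and 7.76 CPM in Young. In Old it was at 6.43, 5.31, 4.93, 5.02 and 4.53 CPM, again without overlap. It fell from 9.96 ± 2.07 to 5.25 ± 0.72 CPM (SD, n = 5; log2FC of -0.92, SE 0.16, edgeR adjusted p = 0.00393), and Pou2af1 changed by -0.78 (edgeR adjusted p = 0.00983). Its overlap with Colca2 on the other strand was 57 exonic bases, and Colca2 was not called (-0.37, edgeR adjusted p = 0.412).

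Gm12158 runs antisense within Ebf1, the transcription factor that commits cells to the B lineage. It went from 6.93 ± 1.32 to 3.62 ± 1.20 CPM (SD, n = 5; log2FC of -0.93, SE 0.21, edgeR adjusted p = 0.0186), with 1 Old mouse at 5.54 CPM above the lowest Young mouse at 4.88. Ebf1 changed by -0.57 (edgeR adjusted p = 0.023). Without Young 2 the call of Gm12158 ended (0.0585). 4930426D05Rik shares 610 exonic bases with Klhl14 on the other strand. It went from 6.29 ± 1.44 to 3.66 ± 0.856 CPM (SD, n = 5; log2FC of -0.78, edgeR adjusted p = 0.0306) and Klhl14 from 4.61 to 1.56 CPM (-1.55, 0.000762). The lncRNA lost its call without Young 1 (0.0682), 2 (0.0714) or 3 (0.0642) or Old 2 (0.06), 4 (0.0507) or 5 (0.0505). Where strand was not used in counting, reads of such overlapping pairs cannot be told apart, and the sources used here do not say whether it was.

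Gm30211 overlaps the joining segments and the constant gene of the immunoglobulin kappa light chain on their strand, and was named after its values were seen. It went from 9.11 ± 1.84 to 5.70 ± 1.35 CPM (log2FC of -0.68, edgeR adjusted p = 0.0398) while Igkc, the kappa constant gene, went from 26.0 ± 5.72 to 159 ± 133 CPM (2.61, 0.0181; SD, n = 5 for both). The lncRNA and the coding gene therefore had opposite signs at a shared locus. The call of Gm30211 ended without Young 1 to 4 or Old 2, 3 or 5 (adjusted p up to 0.111) and with the muscle covariate (0.12). Of 10 B and plasma cell markers, the B-lineage genes Cd79b (-0.67), Vpreb1 (-0.97) and Ebf1 (-0.57) were lower, the plasma cell genes Jchain (2.84) and Igha (3.08) were higher, and their summed level was 494 to 672 CPM in Young and 474 to 1874 in Old. The part of these cells in the lncRNA levels was not tested.

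**Figure D4:**
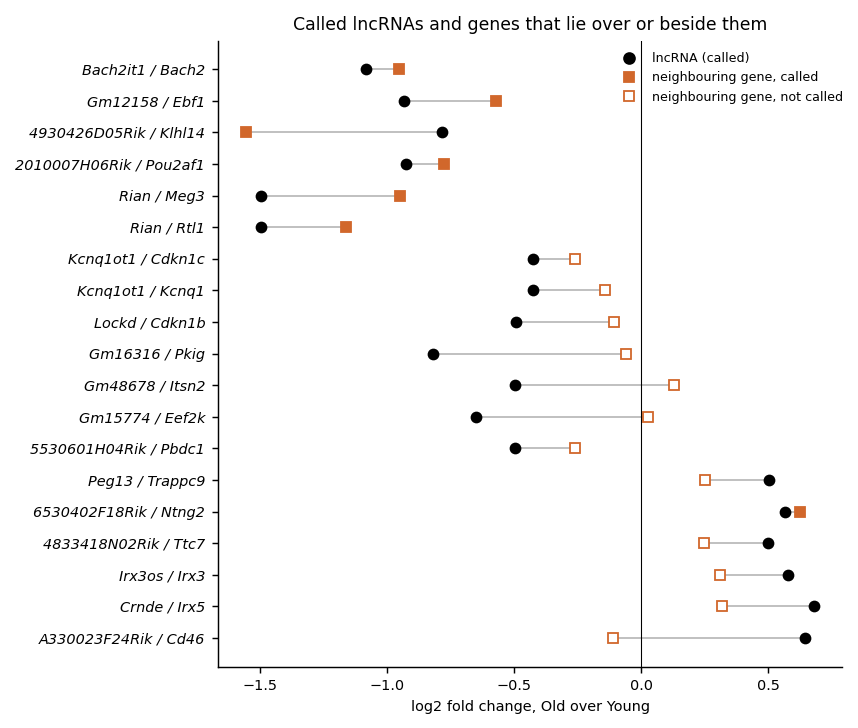
Log2 fold change of Old over Young for 19 pairs of a called lncRNA (black) and a gene over or near it (square, filled where called). The distance reaches 161790 bases for Cdkn1c. Gm30211 with Igkc, a called gene of opposite sign (-0.68 and 2.61), and 2010007H06Rik with Colca2 are not drawn. Bach2it1, Gm12158, 4930426D05Rik, 2010007H06Rik, Rian and 6530402F18Rik stand beside a called gene of the same sign, whereas the neighbours of Gm15774, Gm48678 and Gm16316 lie near 0. Of these, Bach2it1, Gm12158, 4930426D05Rik, 2010007H06Rik and Gm16316 became members through the Young mean alone.

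On the list of blood cell lncRNAs, 2 of the 8 abundant members, Lockd and AI506816, were lower and 0 were higher. Of all genes at the same level, 4.28% were called lower and 3.82% higher. AI506816 was at 50.2, 47.6, 55.0, 57.4 and 42.9 CPM in Young and at 29.6, 44.7, 22.4, 33.9 and 38.1 CPM in Old, with an overlap of 1 mouse on each side (log2FC of -0.58, SE 0.16, edgeR adjusted p = 0.0398). Its call ended without Young 1 to 4 or Old 1, 3 or 4 (adjusted p up to 0.108), with total-count scaling (0.0503) and with the muscle covariate (0.106). Redrum, which is not on that list, fell from 8.44 ± 2.03 to 4.42 ± 0.911 CPM without overlap (SD, n = 5; log2FC of -0.93, SE 0.19, edgeR adjusted p = 0.00989). It became a member through the Young mean alone. Morrbid, a transcript of short-lived myeloid cells, was at 15.9 and 17.7 CPM, and AI662270 at 27.8 and 22.9 CPM, and neither was called. Red cell precursor markers summed to 3896 to 11367 CPM in Young and 3253 to 11270 in Old, with 0 of 9 called, and 10 neutrophil markers had 0 called. Proliferation markers summed to 1545 to 3093 and 1230 to 2034 CPM, with 1 of 10 lower. Their part in these differences was not tested.

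Other falls were those of 1700027J07Rik, 1810059H22Rik and Gm16316, which became members through the Young mean alone, and of 1110038B12Rik, which reached 5 CPM in both means. 1700027J07Rik (ENSMUSG00000111422.1, chr10:43745809-43765836, + strand), an intergenic transcript, had the smallest p of the 316. It was at 10.4, 9.24, 7.14, 8.997 and 6.603 CPM in Young and at 4.73, 3.40, 3.99, 2.39 and 4.18 CPM in Old. The groups were well separated, and the mean fell from 8.47 ± 1.56 to 3.74 ± 0.888 CPM (SD, n = 5; log2FC of -1.19, SE 0.19, edgeR adjusted p = 0.00259). 1810059H22Rik was at 7.08 to 9.60 CPM in Young and 1.73 to 5.76 in Old (log2FC of -1.19, SE 0.25, edgeR adjusted p = 0.015). Gm16316, antisense within Pkig, was at 5.68 to 9.80 and 4.05 to 5.11 CPM (-0.82, edgeR adjusted p = 0.00863), while Pkig was at 37.2 and 35.7 CPM. 1110038B12Rik, a host of small nucleolar RNAs, was at 11.3 to 14.7 and 7.21 to 9.40 CPM (-0.55, edgeR adjusted p = 0.0144). None of these 4 overlapped between the ages, and each held its call under all 9 alternatives and without each sample in turn.

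Weaker falls were those of Gm48678, Gm15774, 5530601H04Rik and, named after its values were seen, 1700001L05Rik, with log2 fold changes of -0.50, -0.65, -0.50 and -0.53 and edgeR adjusted p of 0.0321, 0.0337, 0.0382 and 0.042. Gm48678 is antisense to Itsn2 and Gm15774 to Eef2k, and neither coding gene was called (0.13 and 0.03). 5530601H04Rik starts within 1 kb of the divergent gene Pbdc1 (-0.26, not called). Each of these 4 calls was near the threshold and ended on leaving out any 1 of several samples. It ended for Gm48678 without Young 2, 4 or 5 or Old 2, 3 or 5 (adjusted p up to 0.088). For Gm15774 it ended on leaving out any 1 sample other than Young 3 and Old 2 (up to 0.0874). For 5530601H04Rik it ended without Young 1, 2 or 4 or Old 3, 4 or 5 (up to 0.11), and for 1700001L05Rik on leaving out any 1 sample other than Young 3 and Old 2 (up to 0.117). With the muscle covariate none of the 4 was called (0.0687, 0.0955, 0.125 and 0.144, in the same order), and the calls of 5530601H04Rik and 1700001L05Rik also ended with total-count scaling (0.0529) and with limma-voom (0.0512), respectively.

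A further 4 lncRNAs were higher in Old. 6530402F18Rik (ENSMUSG00000079499.9, chr2:29245107-29253006, - strand) overlaps Ntng2, which encodes the axon guidance protein netrin-G2, on its strand with 558 exonic bases. It was at 24.6, 19.9, 19.7, 23.0 and 23.6 CPM in Young and at 25.5, 36.9, 35.4, 37.1 and 29.3 CPM in Old, without overlap (log2FC of 0.57, SE 0.12, edgeR adjusted p = 0.0145). Ntng2 rose by 0.63 (edgeR adjusted p = 0.00524), and reads of the shared bases cannot be assigned to one of them. The lncRNA lost its call without Young 2 (0.0501) and with total-count scaling (0.18).

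4833418N02Rik, divergent from Ttc7, went from 4.42 ± 0.411 to 6.25 ± 0.307 CPM (SD, n = 5; log2FC of 0.50, edgeR adjusted p = 0.023), and Ttc7 was not called (0.25, 0.179). Its call ended without Young 2 (0.0676) or Old 3 (0.0552), with total-count scaling (0.267) and with no filter on low counts (0.0537). Gm1968 was at 3.17 to 5.34 CPM in Young and 5.77 to 10.8 in Old (log2FC of 0.95, SE 0.21, edgeR adjusted p = 0.0183), and its call ended without Young 2 (0.0601) or Young 4 (0.0544). Gm10382 had the largest rise of the called lncRNAs. It was at 4.13, 2.14, 3.67, 3.19 and 3.04 CPM in Young and at 5.84, 4.74, 9.87, 10.9 and 4.40 CPM in Old (log2FC of 1.14, SE 0.27, edgeR adjusted p = 0.0242). Old 3 and Old 4 were well above the other Old mice, and the call ended without Old 3 (0.0558), Young 2 (0.0685) or Young 4 (0.0628). GENCODE vM21 annotates Gm10382 as protein coding. 4833418N02Rik, Gm1968 and Gm10382 became members through the Old mean alone.

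**Figure D5:**
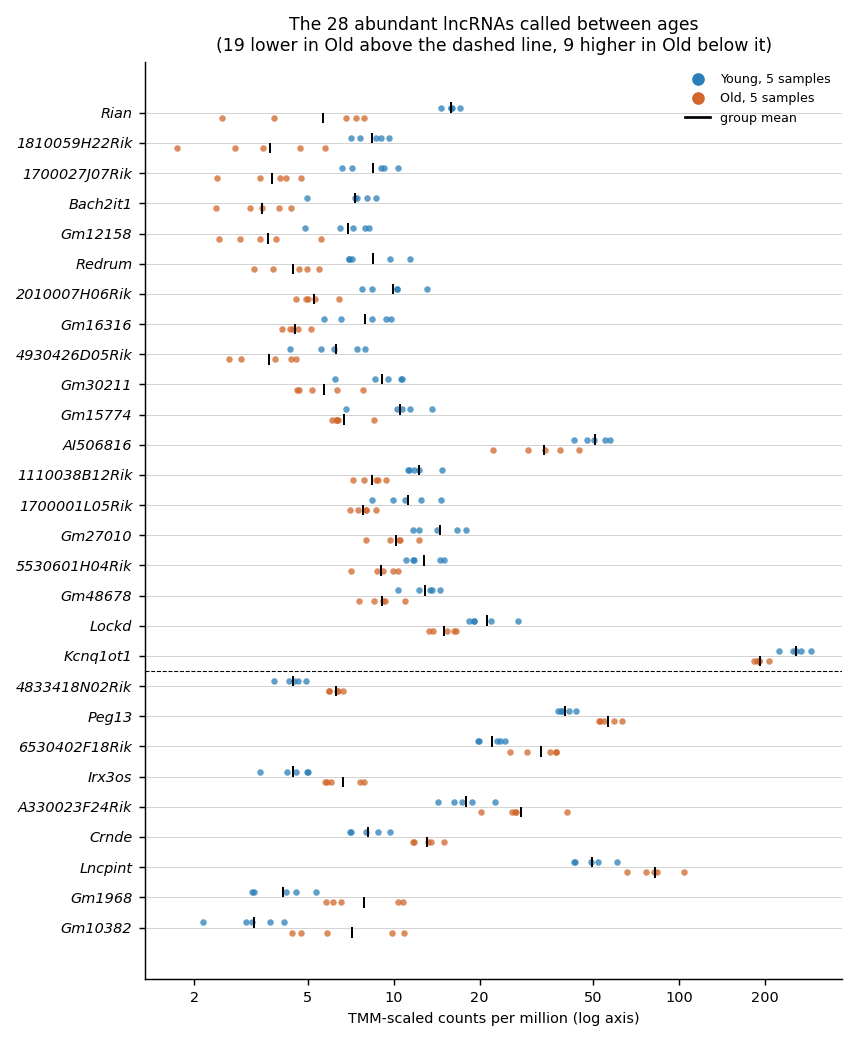
TMM-scaled CPM (log axis) of the 28 called lncRNAs, 1 row each, with 5 Young points, 5 Old points and a bar at each group mean. The 19 lncRNAs above the dashed line were lower in Old, with the widest gap in Rian, and the 9 below it were higher, with the highest CPM in Lncpint.

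The position of a lncRNA relative to coding genes was read from GENCODE vM21, in which all 316 were found. Coding genes here were those annotated as protein coding, a type that does not hold the immunoglobulin genes. Gm30211 was therefore counted as apart from coding genes and without exonic overlap, although it overlaps Igkc. Of 97 lncRNAs that lay apart from coding genes so defined, 3 were higher and 9 lower, Gm30211 among them (12.4% called), beside 7.29% of all tested genes and 8.10% of those at the same level. Of 153 that overlapped a coding gene on the other strand, 3 were higher and 7 lower (6.54%). Of 48 that overlapped one on their own strand, 2 were higher and 2 lower (8.33%), and of 18 that started within 1 kb of a divergent coding gene, 1 was higher and 1 lower (11.1%). Of 121 lncRNAs that share exonic bases with a coding gene, 4 were higher and 5 lower (7.44%), and of the 195 without such an overlap 5 were higher and 14 lower (9.74%). These shares were not tested against each other. Of 256 pairs of a lncRNA and a tested coding gene that it overlaps or diverges from, 153 had fold changes of the same sign. These were 100 of 178 pairs on the other strand, 30 of 45 on the same strand and 23 of 33 with a divergent start. No expected number of same-sign pairs was computed, and some coding genes stand in more than 1 pair. If strand was not used in counting, reads over shared exons cannot be told apart. The 28 lncRNAs annotated as lying within an intron on the strand of their host had a median log2FC of -0.17, and 23 of them were below 0, beside 180 of all 316 lncRNAs and 49.1% of all tested genes. Of the 28, 1 was called higher (Peg13) and 1 lower (Bach2it1). Several lncRNAs can share a host on its strand, as some do with Rap1a, named after its values were seen. The 28 are therefore not all separate observations, and reads of unspliced host RNA cannot be told apart from theirs.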

How the data were processed

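Femur RNA of 5 Young and 5 Old mice was measured by RNA sequencing, and the deposited table holds whole-number counts of reads per gene. The authors made these counts by trimming reads with Cutadapt, aligning them with STAR to GRCm38.p6 and counting with featureCounts, per the paper's methods. The labels name hg38, but the identifiers are those of mouse genes. Neither the annotation release nor the strand setting of the counting is given in the sources used here. All 10 columns were mapped by their labels, and the lncRNA biotype is that of the table.

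All genes were tested, in R 4.3.3 with edgeR 4.0.16, and only rows of the abundant lncRNAs and of genes they turn on are printed. Low genes were removed by filterByExpr (count of at least 10, total of at least 15), and libraries were scaled by TMM and compared by the robust quasi-likelihood test, with Benjamini-Hochberg adjustment over 22088 genes and a threshold of 0.05. Standard errors were derived from the log2 fold change and the F statistic. With 31788232 to 45075335 counts per library, the median standard error of the 316 lncRNAs was 0.152 on the log2 scale. On simulated counts of 21773 genes, 11 of 60 genes changed 1.5-fold were called, 42 of 73 changed 2-fold and 63 of 67 changed 4-fold. There were 3 false calls among 119, and many small changes were missed. Fewer genes changed in the simulation than the 1610 called in these data, and libraries did not differ in composition. The simulated shares may therefore not hold for these data.

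Alternatives were other scalings and filters, DESeq2 1.42.0, limma-voom (limma 3.58.1), the mean level of muscle markers as a covariate, the sample number as a block, other thresholds and level limits, and leaving out each sample. Their use on the lncRNA lists was chosen after seeing the data. Positions came from GENCODE vM21, where 306 of the 316 had the same start and end, and sequences from RefSeq or GENCODE transcripts on GRCm38.p6. Tables and plots used Python 3.11.15, pandas 2.3.3 and matplotlib 3.10.9. The members and all lists were chosen with earlier results of these data known. Named lncRNAs are up to 15 with the smallest p in each direction, the 12 with the highest mean CPM, those on a list, those at the level limit, and the coding genes over or beside them. Others are marked where named. The table annotates 7 of the 316 as lncRNA that GENCODE vM21 annotates as protein coding.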

Additional observations from a re-analysis of the deposited data

Results flagged for a closer look

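Among the 53 lncRNAs named by the rule, 106 sets of 5 values were checked for a sample far from the others by Dixon's criterion, and 7 were marked. Chance marks about 1 in 20 such sets. In Old, sample 2 stood high for Gm15774 (8.516 CPM), sample 4 for AU020206 (92.55 CPM) and sample 3 for Nctc1 (71.01 CPM). In Young, sample 5 stood low for 1810026B05Rik (39.88 CPM) and for Dnm3os (20.49 CPM), sample 4 for Airn (17.41 CPM) and sample 3 for 4930481A15Rik (2.288 CPM). Gm15774 is the only one of these that was called between the ages.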

How the results depend on the processing

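Of the 28 called lncRNAs, 13 kept their call under all 9 alternative analyses, 11 without each sample in turn, and 9 under both, and 0 changed sign. Against 9 higher and 19 lower, DESeq2 called 19 and 31, the muscle covariate 16 and 10, and scaling by total counts alone 3 and 19. The calls over all genes changed as well, from 1610 to 2828 with DESeq2, 1594 with the muscle covariate and 1202 with total counts. At 1.5-fold there were 5 and 11, at an adjusted p of 0.01 there were 3 and 6, at a limit of 2 CPM 22 and 41 of 861, at 10 CPM 5 and 8 of 102, and at 5 CPM in both group means 5 and 11. Leaving out a sample gave 3 (without Young 2) to 15 (without Old 2) higher and 8 (without Young 2) to 23 (without Young 3) lower. Over all genes, 686 were called without Young 2, 1314 without Young 3 and 1578 without Old 2. The cause of these shifts was not tested, except that other thresholds and limits change the genes counted.

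Scaling by total counts moved the median log2 fold change of the 316 from -0.07 to -0.24. On the lists under that scaling, the imprinted list had 0 higher, the microRNA hosts 3 lower, the growth and stress list 1 higher, the Hox list 0 higher and 1 lower, and the blood cell list 1 lower. Among microRNA hosts 2 were lower with no filter on low counts, 2 with limma-voom, 2 with the replicate block, 3 with DESeq2 and 3 with the muscle covariate. On the growth and stress list 1 was lower with the muscle covariate and 1 with the block. On the Hox list 3 were higher with DESeq2 and 2 with the block. On the blood cell list 0 were lower with the muscle covariate and 1 with the block. Leaving out a sample gave 1 to 3 lower microRNA hosts, 1 to 2 lower growth and stress lncRNAs, 1 to 2 higher Hox lncRNAs and 0 to 2 lower blood cell lncRNAs.

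Equal sample numbers do not pair the mice: deviations of equally numbered samples correlated at -0.154, 0.0387, 0.169, 0.159 and -0.084, and of the 5 Young samples only number 3 correlated best with its own number. With the replicate block, 11 lncRNAs were higher and 17 lower, and 1632 of all genes were called. The block ended the calls of Lockd (adjusted p = 0.0554), Gm48678 (0.059), A330023F24Rik (0.0637) and 1700001L05Rik (0.0661). Depth and 5 mice per group limit the detection of changes under 2-fold.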

Other observations

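The largest fold changes among the lncRNAs that were not called were widely spread within both groups, and the genes named here were chosen after their values were seen. Gm21887 ranged from 0.227 to 10.8 CPM in Young and from 0.152 to 33.3 in Old (log2FC of 1.70, SE 1.31, edgeR adjusted p = 0.45). A930016O22Rik was at 1.94 to 6.63 CPM in Young and 4.10 to 24.6 in Old (log2FC of 1.40, edgeR adjusted p = 0.0888), and B230312C02Rik at 1.92 to 6.04 and 2.67 to 18.7 CPM (1.104, 0.185). Old 3 held the highest value of all 3, as it did for Nctc1 and Bc1.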
